A study of Mus musculus with 88 samples.

Results

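Hippocampal subfield marker genes were followed across strain and stress in mouse RNA-seq data. The set held 8 genes, 4 assigned to the dentate gyrus (Prox1, Dsp, C1ql2 and Tdo2) and 4 to the CA fields (Wfs1, Fibcd1, Pou3f1 and Lct), chosen as the rows of the region tables whose Ensembl identifier maps to these symbols. All 8 were among the 19559 genes of the ventral hippocampus (vHPC) table, and 7 were among the 18946 genes of the medial prefrontal cortex (mPFC) table. All 8 were among the 48795 genes of the table of the bed nucleus of the stria terminalis (BNST), where 5 passed the filter on low counts.

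The hippocampus relays information through a chain of excitatory cell types, from the granule cells of the dentate gyrus to the pyramidal cells of CA3 and then of CA1. Granule cells keep being born in the adult dentate gyrus and send mossy fibers to CA3, and their genes change as they mature. The ventral pole of the hippocampus projects to the mPFC, the amygdala and, by way of the BNST, to the stress axis, and its response to social defeat is a common object of study.

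The study asked how genetic background shapes the brain's response to chronic social defeat stress (CSDS), in which a mouse is repeatedly defeated by a larger aggressor. All mice were male and 8 weeks old by the labels, belonged to the inbred strains C57BL/6Crl (B6) or DBA/2Crl (D2), as the labels spell them (C57BL/6NCrl and DBA/2NCrl in the study's methods), and were housed singly once CSDS ended. Tissue was taken 6 to 8 days after the last defeat. Controls (con) were not defeated. Defeated mice were called resilient (res) or susceptible (sus) from their social avoidance relative to controls of their own strain. The vHPC libraries came from 6 con, 8 res and 3 sus B6 mice and from 6 con and 5 sus D2 mice. The mPFC libraries came from 6 con, 6 res and 6 sus B6 mice and 6 con and 8 sus D2 mice, and the BNST libraries from 5 con, 5 res and 5 sus B6 mice and 5 con, 3 res and 5 sus D2 mice. Each library came from a different mouse within its region, and resilient D2 mice were part of the BNST comparison only. The 2 strains differ at many loci at once, so a strain difference is not that of a single gene.

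Of the dentate genes, Prox1 encodes the homeodomain factor that gives granule cells their identity (chromosome 1, 190118035 to 190170714, minus strand). Dsp encodes desmoplakin, a desmosomal protein used as a marker of mature granule cells (chromosome 13, 38151294 to 38198577, plus strand). C1ql2 encodes a secreted C1q-like protein that organizes mossy fiber synapses (chromosome 1, 120340582 to 120343174, plus strand). Tdo2 encodes tryptophan 2,3-dioxygenase, which opens the kynurenine pathway and is also a marker of mature granule cells (chromosome 3, 81957090 to 81976202, minus strand). Of the CA field genes, Wfs1 encodes wolframin of the endoplasmic reticulum membrane (chromosome 5, 36966104 to 36989205, minus strand). Fibcd1 encodes a transmembrane receptor for acetylated ligands (chromosome 2, 31813290 to 31846005, minus strand), and Pou3f1 a POU-domain transcription factor (chromosome 4, 124656807 to 124660655, plus strand). Lct encodes the enzyme lactase (chromosome 1, 128284756 to 128328318, minus strand). Positions are those of GENCODE M21 on GRCm38. Although it was grouped here with the CA fields, Lct is also known from granule cells of the dorsal dentate gyrus. A transcript model on the other strand, Gm10129, overlaps the start of Dsp, and whether the counting used strand is not given in the sources used here.

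The promoters of 3 genes that were lower together in D2 mice and in susceptible B6 mice are shown, because these genes share that pattern while their upstream sequence differs in kind. Tdo2 shares the pattern too, and its window, with 46.4% G and C and no E-box, is not printed. The windows of Tdo2 and Dsp overlap an annotated exon, and those of C1ql2 and Lct do not. Each run is the 250 bases before the RefSeq start, 5′ to 3′ on the strand of the gene (RefSeq, GRCm38.p6), with every E-box (CANNTG, which reads the same on both strands, the general motif of basic helix-loop-helix factors) in capitals. An E-box is in 66.2% of the 32851 promoter windows of the same length, so its presence here is a description and nothing more.
C1ql2 (chr1:120340332-120340581, plus strand): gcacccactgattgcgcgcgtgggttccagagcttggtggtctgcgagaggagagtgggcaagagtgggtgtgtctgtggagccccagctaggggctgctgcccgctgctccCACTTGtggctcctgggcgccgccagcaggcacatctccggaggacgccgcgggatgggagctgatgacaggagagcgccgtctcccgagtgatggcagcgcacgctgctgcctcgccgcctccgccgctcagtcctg
Dsp (chr13:38151044-38151293, plus strand): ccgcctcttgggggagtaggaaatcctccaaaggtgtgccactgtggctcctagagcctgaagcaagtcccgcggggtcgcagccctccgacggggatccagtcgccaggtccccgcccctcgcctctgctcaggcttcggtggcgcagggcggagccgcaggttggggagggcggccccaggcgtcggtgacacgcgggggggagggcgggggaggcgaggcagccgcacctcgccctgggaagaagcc
Lct (chr1:128328319-128328568, minus strand): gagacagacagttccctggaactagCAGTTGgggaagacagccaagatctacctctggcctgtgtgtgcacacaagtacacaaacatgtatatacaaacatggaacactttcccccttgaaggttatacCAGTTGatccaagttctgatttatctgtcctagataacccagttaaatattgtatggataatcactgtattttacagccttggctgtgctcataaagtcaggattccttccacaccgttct
The windows of C1ql2 and Dsp are rich in G and C (68.8% and 72.4%, with 20 and 22 CG dinucleotides), against a median of 52.4% over all windows. That of Lct is poor in them (42.8%, with 1 CG dinucleotide). C1ql2 has 1 E-box, Lct has 2 and Dsp has none in this window. GGGCGG, the GC box, was searched on both strands and occurs 4 times for Dsp and not at all for C1ql2 and Lct. It is in 32.7% of all windows.

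In control B6 mice all 8 genes were detected in the vHPC, where levels per length, as log2 CPM (read counts scaled to library size) per kilobase of exon, ran from C1ql2 (5.29) through Fibcd1 (4.92), Wfs1 (3.89), Prox1 (3.09), Pou3f1 (2.91) and Lct (1.87) to Dsp (1.38) and Tdo2 (1.36). Dsp and Tdo2 were the pair of neighbours in that order that lay within an SD of each other. The 3 tables were normalized separately, so levels are set side by side across regions without a test. By the study's methods each region also had its own library preparation kit, and rRNA removal and sequencing platform were not the same for all regions. Region and library method therefore cannot be told apart. In the mPFC the corresponding levels of Dsp (-3.11), Tdo2 (-1.93), Lct (-1.44) and Fibcd1 (-0.71) were lower, as were those of Prox1 (0.88) and Pou3f1 (0.83), and C1ql2 was not in the table, whereas Wfs1 (3.53) stood close to its vHPC level. In the BNST, Wfs1 (5.74), Pou3f1 (3.92) and Prox1 (2.71) stood near or above their vHPC levels, and Dsp (-4.80), Tdo2 (-4.44) and Lct (-4.29) were near 0 counts, with medians of 5, 4 and 5 reads per B6 con library. C1ql2 (-0.07) and Fibcd1 (1.27) were lower in the BNST than in the vHPC. The presence of C1ql2, Dsp and Tdo2 at these levels in the vHPC table matches the hippocampal label of that table, while Wfs1 in both other regions and Pou3f1 and Prox1 in the BNST stood near or above their vHPC levels.

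**Figure D1:**
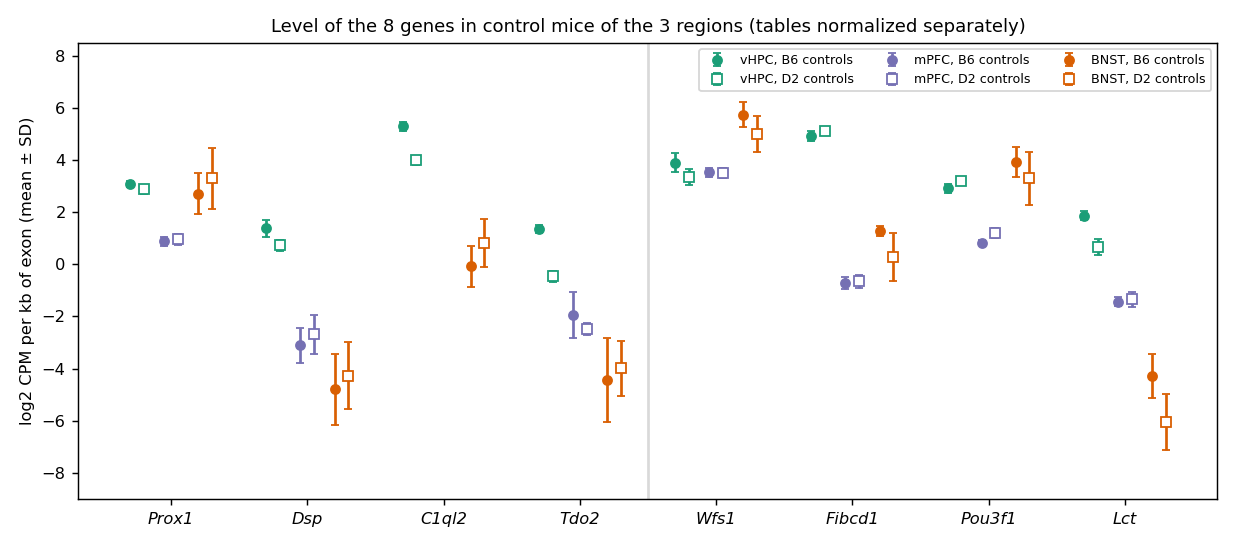
Mean level ± SD of each gene (x axis) in control mice of the 3 regions (colours), filled circles for B6 and open squares for D2, as log2 CPM per kilobase of exon (y axis). Dsp, C1ql2, Tdo2, Fibcd1 and Lct stand highest in the vHPC, whereas Wfs1 and Pou3f1 are highest in the BNST.

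Before the comparisons, the vHPC libraries were checked with 91 genes whose raw BNST counts set the control strains more than 3 log2 units apart. Each library was placed on a scale on which the B6 con mean is 0 and the D2 con mean is 1. The vHPC libraries of resilient B6 mice stood at 0.321 ± 0.028 (SD, n = 8), those of susceptible B6 mice at 0.461 ± 0.034 (n = 3) and those of susceptible D2 mice at 1.24 ± 0.045 (n = 5), so every defeated B6 library lay apart from the B6 controls toward D2. In the mPFC the corresponding values were 0.028, 0.0539 and 1.04. The deposited vHPC values had been adjusted by the authors for library and sequencing sets, and of the 10 vHPC library sets none mixed B6 controls with defeated B6 mice and 1 mixed D2 controls with susceptible D2 mice. Set, stress and this shift cannot be told apart in the stress comparisons of the vHPC, and the shift is given beside them.

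In control D2 mice 5 of 8 genes were lower and 1 was higher than in control B6 mice, where 59.3% of all 19559 genes were called (limma, adjusted p under 0.05), 29.1% of all genes being lower and 30.2% higher. Tdo2, C1ql2 and Lct were the most reduced, Dsp and Wfs1 less so, and Pou3f1 was slightly higher.

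Tdo2 ranged from 3.13 to 3.48 log2 CPM in control B6 libraries (median 3.34, n = 6) and from 1.2 to 1.76 in control D2 libraries (median 1.54, n = 6). All D2 libraries were thus below all B6 libraries. The difference was -1.81 ± 0.11 (log2, SE), a 3.52-fold lower level (limma, adjusted p = 5.8e-13). In bulk tissue a lower level may come from fewer cells of a type or from less RNA per cell, and these cannot be told apart. C1ql2 ranged from 6.08 to 6.54 log2 CPM (median 6.27) in control B6 and from 4.73 to 5.25 (median 4.99) in control D2 mice. Here too the groups did not overlap, with a difference of -1.30 ± 0.10, 2.46-fold (limma, adjusted p = 3.69e-11). Lct, at 4.34 to 4.79 (median 4.53) against 3.01 to 3.74 log2 CPM (median 3.29), did not overlap either and was 2.31-fold lower (-1.21 ± 0.21, limma, adjusted p = 3.01e-05). Dsp was 1.58-fold lower (-0.66 ± 0.15, limma, adjusted p = 7.18e-04), from 4.27 to 5.10 (median 4.63) in B6 and from 3.69 to 4.25 (median 4.04) in D2 mice. Its highest D2 library stood just below the lowest B6 library. In all, 4 of 8 genes had groups that did not overlap, beside 36.7% of all genes.

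The granule cell identity gene Prox1 did not pass the test. It lay between 5.96 and 6.27 log2 CPM (median 6.19) in control B6 and between 5.79 and 6.23 (median 5.90) in control D2 mice, with overlapping groups and a difference of -0.21 ± 0.12 (limma, adjusted p = 0.123). With only the 2 control groups in the fit it passed (-0.21, limma, adjusted p = 0.0294). Among the CA field genes, Wfs1 was 1.45-fold lower in D2 mice (-0.54 ± 0.20, limma, adjusted p = 0.0219), at 5.4 to 6.26 (median 5.71) against 4.87 to 5.56 log2 CPM (median 5.33), with overlapping groups. Its call was lost without B6 con replicate 3 (-0.45, adjusted p = 0.0614) or 6 (-0.44, adjusted p = 0.0627) and without D2 con replicate 3 (-0.45, adjusted p = 0.0589) or 6 (-0.48, adjusted p = 0.051), all by limma. Pou3f1 was 1.23-fold higher in D2 mice (0.30 ± 0.08, limma, adjusted p = 0.00333), at 4.63 to 5.04 (median 4.91) in B6 against 5.01 to 5.34 log2 CPM (median 5.12) in D2 mice, where the groups overlapped slightly. Fibcd1, the most abundant of the 4 CA field genes per length, differed by 0.19 ± 0.09 (limma, adjusted p = 0.0615), and passed without B6 con replicate 2 (0.24, adjusted p = 0.0197) or 4 (0.23, adjusted p = 0.03) or D2 con replicate 5 (0.22, adjusted p = 0.0328).

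**Figure D2:**
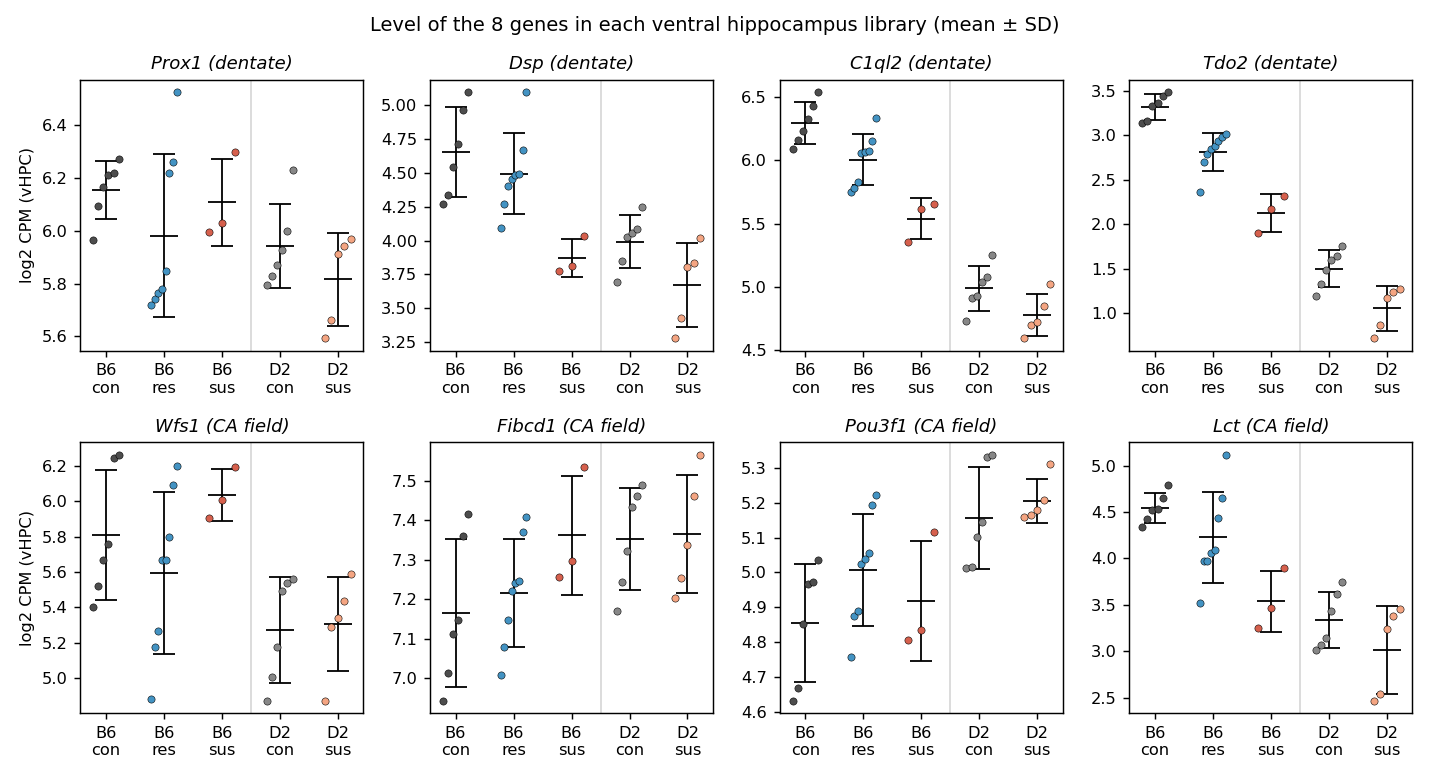
Level of each gene (log2 CPM, y axis) in every vHPC library by group (x axis), with the group mean and SD as bars and one point per mouse. Tdo2 falls into a descending order of groups from 3.32 in B6 controls to 1.06 in susceptible D2 mice, whereas Prox1, Fibcd1 and Pou3f1 overlap across most groups.

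No library set held control mice of both strains, but 5 sets held libraries of both strains of any phenotype and gave 6 pairs of group means. Tdo2 was lower in D2 in 6 of 6 pairs, by -2.13 to -0.25 (log2), and C1ql2 in 6 of 6, by -1.81 to -0.33. The extremes of -2.13 and -1.81 set susceptible D2 against control B6 mice. Phenotype matched only in the pair of susceptible mice, where Tdo2 differed by -0.65 and C1ql2 by -0.33. The other pairs mix strain with stress, and some pairs share a library, so they are not independent. Lct, Prox1 and Wfs1 were lower in 5 of 6 and Dsp in 3 of 6, and Pou3f1 was lower in 0 of 6. With the library set as a covariate, Tdo2 (-1.93, limma, adjusted p = 0.00714) and C1ql2 (-2.0, limma, adjusted p = 9.13e-04) kept their calls in control mice, and Lct (-1.94, adjusted p = 0.146), Dsp (-0.49, adjusted p = 0.666), Wfs1 (-0.67, adjusted p = 0.655) and Pou3f1 (0.23, adjusted p = 0.733) lost theirs.

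Tdo2, C1ql2 and Wfs1 were lower and Pou3f1 was higher in D2 mice among susceptible mice as well. Susceptible B6 mice had Tdo2 at 1.90, 2.2 and 2.31 log2 CPM and susceptible D2 mice at 0.72, 0.87, 1.2, 1.25 and 1.28, again without overlap, a difference of -1.07 ± 0.15 (limma, adjusted p = 2.29e-06). C1ql2 stood at 5.35, 5.61 and 5.65 log2 CPM in B6 and at 4.6, 4.7, 4.72, 4.85 and 5.02 in D2 mice, with a difference of -0.76 ± 0.13 (limma, adjusted p = 4.71e-05). With the library set as a covariate the calls of Tdo2 (-0.84, limma, adjusted p = 0.152) and C1ql2 (-0.41, limma, adjusted p = 0.423) were lost. Wfs1 (-0.73 ± 0.25, limma, adjusted p = 0.0264) was lower and Pou3f1 (0.29 ± 0.11, limma, adjusted p = 0.0411) higher in D2. Thus 3 of 8 genes were lower, beside 16.1% of all genes, and 1 was higher, beside 16.5%. In either direction 4 of 8 were called and 5 of 8 had groups that did not overlap, beside 32.7% and 37.9% of all genes. The groups did not overlap for Prox1, Tdo2, C1ql2, Wfs1 and Pou3f1. Prox1 (-0.29 ± 0.15, adjusted p = 0.143), Dsp (-0.20 ± 0.20, adjusted p = 0.472), Lct (-0.52 ± 0.27, adjusted p = 0.147) and Fibcd1 (0.00 ± 0.11, adjusted p = 0.988) did not pass limma's test. The calls of Wfs1 and Pou3f1 were lost without B6 sus replicate 1 (-0.74, adjusted p = 0.064, and 0.23, adjusted p = 0.179) or 3 (-0.65, adjusted p = 0.105, and 0.24, adjusted p = 0.156) and without D2 sus replicate 4 (-0.62, adjusted p = 0.0713, and 0.30, adjusted p = 0.0518). That of Pou3f1 was also lost without D2 sus replicates 1 (0.28, adjusted p = 0.061), 3 (0.26, adjusted p = 0.0809) and 5 (0.29, adjusted p = 0.0543), all by limma.

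In B6 mice Tdo2, Dsp, C1ql2 and Lct were lower in the vHPC of susceptible than of control animals and no gene was higher, 4 of 8 beside 40.6% of all genes called in either direction and 20.1% called lower. Tdo2, at the 3 values given above, was below every control and every resilient library and 2.28-fold lower than in controls (-1.19 ± 0.14, limma, adjusted p = 5.92e-07). C1ql2 was 1.68-fold lower (-0.75 ± 0.12, limma, adjusted p = 5.48e-05), again below every control. Dsp stood at 3.77, 3.81 and 4.03 log2 CPM in susceptible mice and was 1.72-fold lower (-0.78 ± 0.19, limma, adjusted p = 0.00222). Lct stood at 3.25, 3.47 and 3.89 and was 2.01-fold lower (-1.01 ± 0.26, limma, adjusted p = 0.00377). These 4 genes, but none of the others, had no overlap between susceptible and control mice, beside 37.7% of all genes.

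Prox1 (-0.05 ± 0.15, limma, adjusted p = 0.816), Wfs1 (0.23 ± 0.24, adjusted p = 0.47), Fibcd1 (0.20 ± 0.10, adjusted p = 0.135) and Pou3f1 (0.06 ± 0.10, adjusted p = 0.64) did not pass in that comparison. All 4 calls held with each mouse left out in turn, with the sequencing set as a covariate and within the first sequencing set alone (6 con and 2 sus B6 mice). They were lost with the library set as a covariate, where the values were -1.29 for Tdo2 (limma, adjusted p = 0.196), -1.40 for C1ql2 (0.0563), -0.62 for Dsp (0.634) and -1.67 for Lct (0.382). With the strain position as a covariate the values were -0.80 for Tdo2 (limma, adjusted p = 0.464), -0.33 for C1ql2 (0.754), 0.02 for Dsp (0.992) and 0.16 for Lct (0.947). Dsp and Lct thus changed sign without passing. The position did not overlap between B6 con (-0.022 to 0.032) and B6 sus libraries (0.439 to 0.501), so that fit could hardly separate position from group. Wfs1 moved from 0.23 to 2.19 in the same fit (limma, adjusted p = 0.255).

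In resilient B6 mice the means of Tdo2, C1ql2, Dsp and Lct lay between those of control and susceptible mice, and Tdo2 alone passed the test. Tdo2 ranged from 2.36 to 3.01 log2 CPM (median 2.86, n = 8) in resilient mice, below every control, and was 1.42-fold lower (-0.51 ± 0.11, limma, adjusted p = 0.00223). It was the single gene called of 8, beside 2120 of all 19559 genes called in either direction and 5.9% called lower. Tdo2 was also the single gene without overlap, beside 3.13% of all genes. C1ql2, at 5.75 to 6.33 (median 6.06), narrowly missed the threshold (-0.29 ± 0.09, limma, adjusted p = 0.0501), and passed without B6 con replicate 1 (-0.33, adjusted p = 0.0358) or B6 res replicates 4 (-0.30, adjusted p = 0.0481) or 6 (-0.34, adjusted p = 0.0166). Prox1 (-0.17 ± 0.11, limma, adjusted p = 0.369) did not pass, with 5 of 8 resilient libraries below every control and 1 above every control. Dsp did not pass either (-0.16 ± 0.14, limma, adjusted p = 0.552), with 1 of 8 resilient libraries below every control. The Tdo2 call was lost with the sequencing set as a covariate (-0.42, limma, adjusted p = 0.178) and with the strain position (-0.23, adjusted p = 0.909). The strain position did not overlap between resilient and control libraries, and 1 of the 8 resilient libraries but all 6 controls came from the first sequencing set.

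Compared directly, susceptible B6 mice had less Tdo2 (-0.69 ± 0.13, limma, adjusted p = 0.00264), C1ql2 (-0.46 ± 0.12, adjusted p = 0.00918), Dsp (-0.62 ± 0.18, adjusted p = 0.0161) and Lct (-0.69 ± 0.25, adjusted p = 0.0421) than resilient mice. That was 4 of 8 genes, beside 27.6% of all genes in either direction and 13.6% called lower, and 3 of 8 without overlap, beside 13.3%. With the library set as a covariate the 4 values were -0.74, -0.39, -0.74 and -0.76 (limma, adjusted p from 0.129 to 0.226), and none passed. In the single library set that held both groups, the susceptible mouse (n = 1) differed from the 2 resilient mice by -0.65 for Tdo2, -0.41 for Dsp, -0.30 for C1ql2 and -0.14 for Lct. Without B6 sus replicate 1 the calls of C1ql2 (-0.37, limma, adjusted p = 0.0634), Dsp (-0.57, 0.0672) and Lct (-0.66, 0.117) were lost, and without B6 sus replicate 3 those of Dsp (-0.59, 0.0607) and Lct (-0.55, 0.182). The Lct call was also lost without B6 sus replicate 2 (-0.87, 0.0619) or any of B6 res replicates 1 (-0.71, 0.052), 3 (-0.66, 0.0626), 4 (-0.56, 0.0556) and 6 (-0.63, 0.0728).

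In D2 mice 1 of the 8 genes passed between susceptible mice and controls. Tdo2 was 1.36-fold lower than in D2 controls (-0.45 ± 0.12, limma, adjusted p = 0.0318), with 3 of the 5 susceptible libraries below every control and the other 2 inside the control range. It was the single gene called of 8, beside 4.28% of all genes in either direction and 2.74% called lower. No gene had groups without overlap, beside 4.98% of all genes. C1ql2 (-0.21 ± 0.11, limma, adjusted p = 0.3), Dsp (-0.32 ± 0.16, adjusted p = 0.308) and Lct (-0.32 ± 0.22, adjusted p = 0.494) had lower means and did not pass. The Tdo2 call was lost without D2 con replicate 1 (-0.43, adjusted p = 0.0695), 3 (-0.39, 0.0802) or 6 (-0.42, 0.0718) and without D2 sus replicate 1 (-0.40, 0.0946) or 4 (-0.36, 0.123). Neither did it pass with the library set (-0.21, 0.969) or the sequencing set (-0.38, 0.22) as a covariate. In the single set with both groups (1 mouse each), Tdo2 differed by -0.40, C1ql2 by 0.11, Dsp by -0.19 and Lct by 0.38.

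The test of whether the response to defeat differed between the strains, the interaction of strain and susceptibility, called 0 of 8 genes by limma, beside 0.782% of all genes, while 2 of 8 had an unadjusted p under 0.05, beside 18.4% of all genes. These were Tdo2 (0.75 ± 0.19, adjusted p = 0.0545) and C1ql2 (0.54 ± 0.16, adjusted p = 0.115), where a positive value means a less negative change in D2 mice. Tdo2 passed without D2 con replicate 3 (0.80, limma, adjusted p = 0.0446) or D2 sus replicate 4 (0.83, limma, adjusted p = 0.0282).

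**Figure D3:**
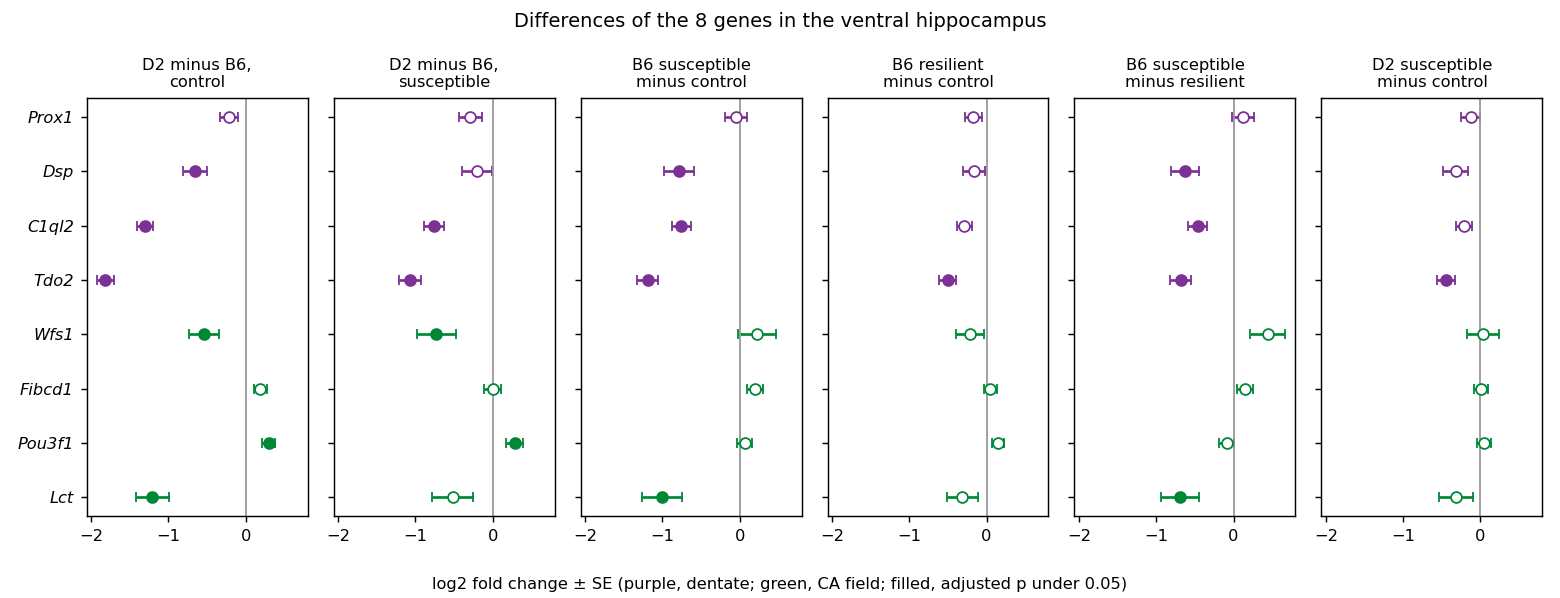
log2 fold change ± SE (x axis) of each gene (y axis) in 6 vHPC comparisons, dentate genes in purple and CA field genes in green, filled where the adjusted p was under 0.05. Tdo2 is lower in all 6 panels and Prox1 is not called in any of them. The panels share groups, so they are not independent of each other.

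The strain and stress comparisons share control mice, and each gene's values are set side by side with the strain position for that reason. The change in susceptible B6 mice, divided by the control strain difference of the same gene, was 0.656 for Tdo2, 0.578 for C1ql2, 0.835 for Lct and 1.2 for Dsp, where the strain position was 0.461. For the genes not called in that comparison it was 1.05 for Fibcd1, 0.22 for Prox1, 0.21 for Pou3f1 and -0.42 for Wfs1. The corresponding ratios of Tdo2, C1ql2, Lct and Dsp in resilient B6 mice were 0.279, 0.221, 0.262 and 0.242, and those of Prox1, Pou3f1, Wfs1 and Fibcd1 were 0.807, 0.503, 0.403 and 0.266, where the position was 0.321. All these ratios are given without an error. Those of Prox1 and Fibcd1 divide by control strain differences that did not pass the test (limma, adjusted p = 0.123 and 0.0615). The order of the group means was the same for Tdo2 and C1ql2, from B6 con to B6 res, B6 sus, D2 con and D2 sus. In that order, neighbouring groups did not overlap for Tdo2 apart from D2 con and D2 sus. For C1ql2, B6 con and B6 res overlapped, as did D2 con and D2 sus.

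The mean log2 CPM of the 4 dentate genes minus that of the 4 CA field genes gave one value per library. It was -0.49 ± 0.08 (SD, n = 6) in control, -0.69 ± 0.13 (n = 8) in resilient and -1.05 ± 0.10 (n = 3) in susceptible B6 mice, and -1.17 ± 0.19 (n = 6) in control and -1.39 ± 0.07 (n = 5) in susceptible D2 mice. No test was run on it. The susceptible B6 values, from -1.14 to -0.94, lay below all control values (-0.59 to -0.42) and did not overlap with the resilient values (-0.94 to -0.54), although the nearest libraries were almost equal. The mean of the dentate genes alone went from 5.10 ± 0.08 in B6 controls to 3.83 ± 0.18 in susceptible D2 mice. Without Lct the mean of the CA field genes lay between 5.93 and 6.11 in all 5 groups, and with it between 5.22 and 5.59. With Lct left out, the difference was -0.84 ± 0.09 in control, -1.12 ± 0.24 in resilient and -1.69 ± 0.08 in susceptible B6 mice, and -1.82 ± 0.22 and -2.13 ± 0.17 in control and susceptible D2 mice.

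**Figure D4:**
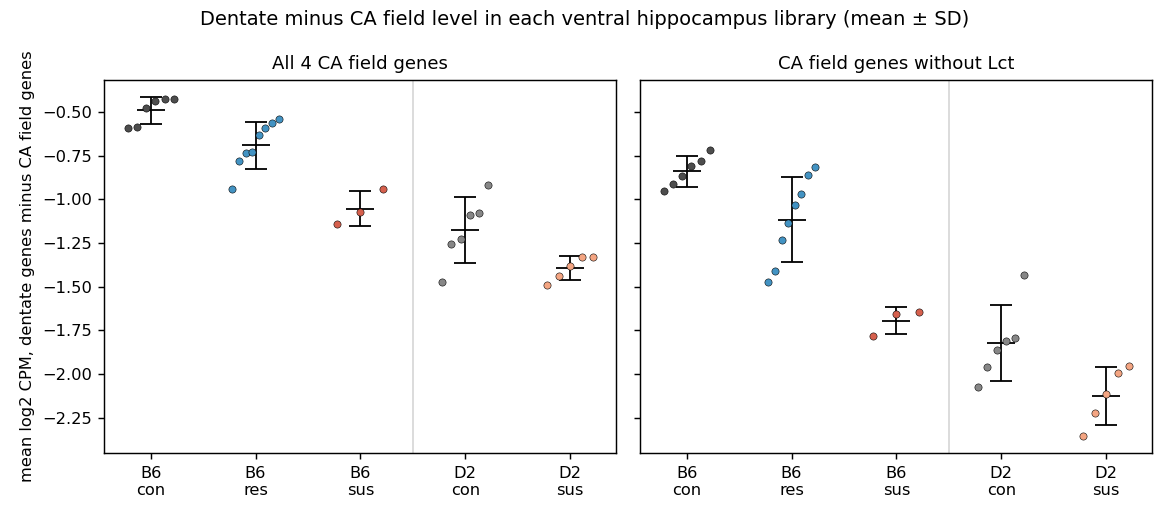
Mean log2 CPM of the dentate genes minus that of the CA field genes (y axis) in each vHPC library by group (x axis), with group mean and SD, using all 4 CA field genes (left) or those other than Lct (right). The group means fall from -0.49 in control B6 to -1.39 in susceptible D2 mice on the left, and from -0.84 to -2.13 on the right.

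After subtraction of the group mean, over the 28 vHPC libraries, which share library sets and adjustment, Prox1 and Dsp had a Pearson correlation of 0.56 and Fibcd1 and Pou3f1 of 0.61. C1ql2 had 0.03 with Prox1, -0.19 with Dsp and 0.29 with Tdo2. Lct had 0.59 with Dsp and 0.44 with Prox1, against 0.05 with Wfs1, -0.05 with Pou3f1 and -0.36 with Fibcd1, and 0.66 with the mean of the dentate genes. C1ql2 and Wfs1 had -0.58, and the mean of the CA field genes had 0.72 with Prox1 and 0.70 with Dsp. The genes most like the mean of the dentate genes were Bbx (0.81), Dgkh (0.81), Nipbl (0.80), Lyst (0.77) and Zfp207 (0.76). Those most like the mean of the CA field genes were Olig1 (0.89), Zfpm1 (0.87), Rasd2 (0.87), Disp1 (0.86) and Cap1 (0.85). Olig1 is a transcription factor of the oligodendrocyte lineage. Gm1848 (0.86), Ptbp3 (0.83) and Epha7 (0.82) were most like Lct. The 8 genes thus did not form a dentate and a CA block within groups.

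Further markers of the hippocampus and its neighbours were read from lists of 107 other genes. Of 15 other granule cell genes, 6 were lower and 1 was higher in control D2 than in control B6 mice, beside 29.1% and 30.2% of all genes, with a median of -0.14 (log2) over the 15 and 0.01 over all genes. These shares stand beside every list compared between control strains. Beside every list compared between susceptible and control B6 mice stand 20.1% of all genes lower and 20.5% higher. The genes called between control strains included Dock10 (-0.59 ± 0.05, limma, adjusted p = 1.5e-10), Plk5 (0.32 ± 0.10, adjusted p = 0.00529) and Glis3 (-0.27 ± 0.07, adjusted p = 0.00139). In susceptible B6 mice 5 of 15 were lower and none higher than in controls (median -0.09), beside 20.1% and 20.5% of all genes, led by Dock10 (-0.45 ± 0.06, limma, adjusted p = 4.06e-06), Trpc6 (-0.35 ± 0.10, adjusted p = 0.00721) and Glis3 (-0.27 ± 0.08, adjusted p = 0.0128). Dock10 was also the single gene of the 15 called lower in resilient B6 (-0.18 ± 0.05, limma, adjusted p = 0.0106) and in susceptible D2 mice (-0.21 ± 0.05, limma, adjusted p = 0.0152). Of all genes, 5.9% and 2.74% were called lower in these comparisons.

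Markers of mossy cells, the other excitatory cell of the dentate gyrus, were higher. Drd2, the dopamine D2 receptor (1.69 ± 0.23, limma, adjusted p = 1.04e-06), Csf2rb2 (1.26 ± 0.13, adjusted p = 5.34e-09) and Calb2, which encodes calretinin and is also made by immature granule cells (0.28 ± 0.10, adjusted p = 0.0201), were 3 of 3 higher in control D2 mice. Drd2 (0.96 ± 0.29, limma, adjusted p = 0.0105) and Csf2rb2 (0.83 ± 0.16, adjusted p = 2.4e-04) were 2 of 3 higher in susceptible B6 mice.

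The lists of the CA fields held genes called in both directions. Of 8 CA3 genes, 3 were higher and 2 lower in control D2 mice, led by Coch (-0.89 ± 0.13, limma, adjusted p = 2.07e-06), Bok (-0.86 ± 0.09, adjusted p = 7.73e-09) and Grik4, a kainate receptor subunit (0.38 ± 0.06, adjusted p = 5.37e-06). Of 6 CA2 genes 1 was higher and 3 were lower, led by Map3k15 (-0.79 ± 0.15, limma, adjusted p = 7.79e-05), Pcp4 (-0.38 ± 0.10, adjusted p = 0.00161) and Rgs14 (0.24 ± 0.07, adjusted p = 0.00671). Of 6 further CA1 genes 1 was higher, Mpped1 (0.26 ± 0.06, limma, adjusted p = 4.82e-04), and of 3 subiculum genes 1, Nts (0.27 ± 0.12, limma, adjusted p = 0.0471). Of 8 genes of the ventral pole 3 were higher and 3 lower, led by Trhr, a receptor of ventral granule cells (-0.88 ± 0.13, limma, adjusted p = 1.89e-06), Nr2f2 (0.60 ± 0.12, adjusted p = 1.14e-04) and Htr2c, the serotonin 2C receptor (-0.55 ± 0.11, adjusted p = 1.39e-04). In susceptible B6 mice against controls, 20.5% of all genes were called higher and 20.1% lower. There 4 CA3 genes were higher and 2 lower, 2 CA2 genes were lower, 2 CA1 genes were higher and 1 lower, and no subiculum gene was called. Of the ventral pole genes 2 were higher and 1 lower in that comparison, Nr2f2 (0.79 ± 0.15, limma, adjusted p = 2.0e-04), Timp2 (0.57 ± 0.10, adjusted p = 1.78e-04) and Htr2c (-0.41 ± 0.13, adjusted p = 0.0172). The summed level of the ventral pole genes was 596 to 659 CPM in susceptible B6, 584 to 697 in control D2 and 504 to 552 in control B6 libraries, so control B6 libraries lay below both other groups.

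Markers of other cell types moved in the same comparisons, and their part in the results above was not tested. All 6 oligodendrocyte genes were lower in control D2 than in control B6 mice, where their summed level was 1159 to 1813 against 2853 to 3243 CPM. All 6 were also lower in susceptible B6 mice (1708 to 1955 CPM). All 6 choroid plexus genes were lower in control D2 mice and 2 of 6 in susceptible B6 mice. Their summed levels were 25.0 to 544 CPM in D2 con, 27.8 to 85.2 in B6 sus and 43.6 to 2176 in B6 con libraries. All 4 endothelial genes were lower in control D2 mice and 3 of 4 in susceptible B6 mice. Of 9 cortical layer genes, 5 were higher in control D2 mice and 6 in susceptible B6 mice. Their summed levels were 466 to 504 CPM in D2 con, 493 to 532 in B6 sus and 379 to 420 in B6 con libraries. Of 6 inhibitory neuron genes 4 were higher in control D2 and 2 in susceptible B6 mice. In control D2 mice 4 of 5 astrocyte genes were lower and 1 higher, 3 of 4 microglia genes were lower, 1 of 5 striatal genes was lower, and of 5 thalamic genes 1 was lower and 1 higher. In susceptible B6 mice 2 of 5 astrocyte genes were lower and 1 higher, with a summed level of 1208 to 1232 against 1386 to 1467 CPM in controls. There 2 of 4 microglia genes and 1 of 5 striatal genes were lower, and of 5 thalamic genes 1 was lower and 1 higher, with a summed level of 191 to 200 against 146 to 186 CPM.

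**Figure D5:**
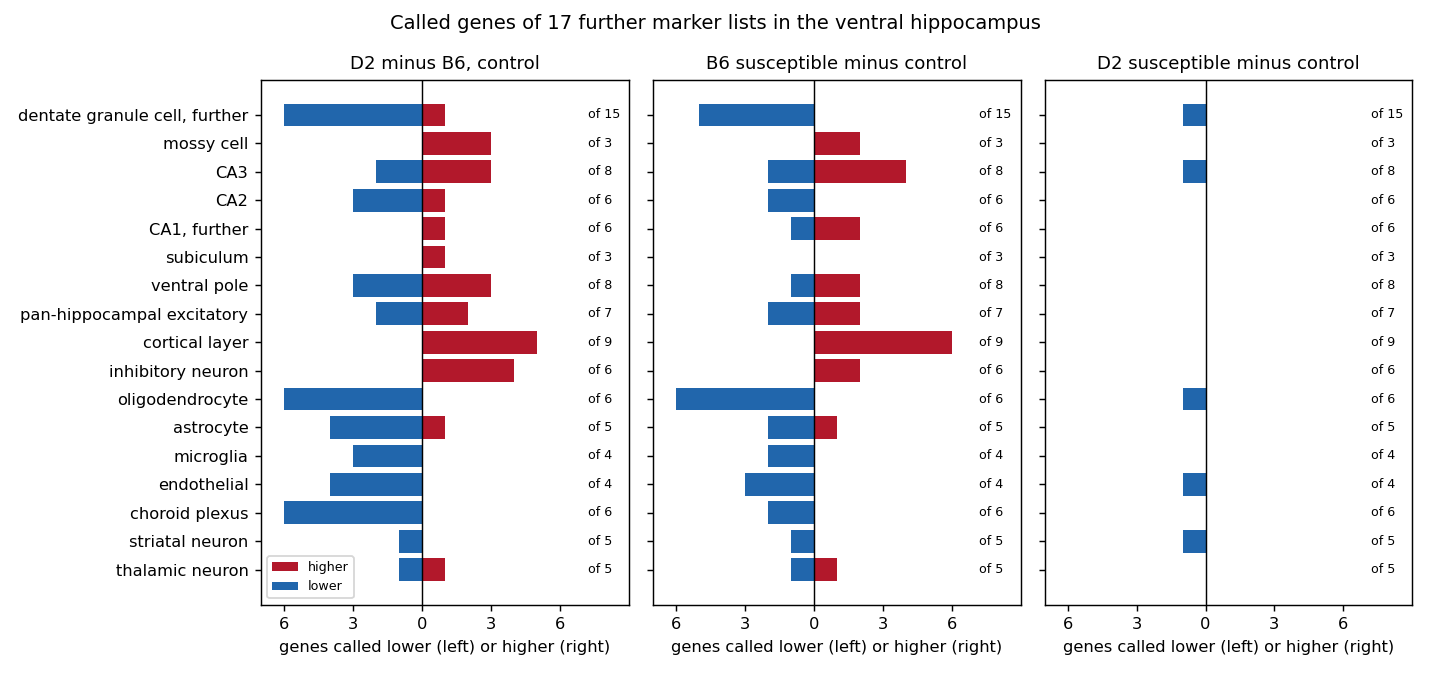
Number of genes called lower (left, blue) or higher (right, red) by limma at an adjusted p under 0.05 (x axis) in each of 17 further marker lists (y axis), with the number tested at the right, in 3 vHPC comparisons. Oligodendrocyte and choroid plexus lists are wholly lower in control D2 mice, and the granule cell list has 6 of 15 lower and 1 higher.

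In the mPFC, of 7 genes tested, Pou3f1 alone was called between control strains, beside 27.8% of all genes. It ranged from 2.63 to 2.87 log2 CPM (median 2.82, n = 6) in B6 and from 2.95 to 3.41 (median 3.05, n = 6) in D2 controls, without overlap. It was higher in D2 (0.36 ± 0.11, limma, adjusted p = 0.0152), as in the vHPC. It was the single gene of 7 without overlap, beside 11.7% of all genes. Tdo2, near the floor of that table at -1.42 to 0.68 log2 CPM in B6 controls, differed by -0.55 ± 0.32 between the strains (limma, adjusted p = 0.212), and by -0.84 (adjusted p = 0.0314) without B6 con replicate 6. In susceptible B6 mice 0 of 7 genes were called against controls by limma, beside 2.22% of all genes, with 0 of 7 at an unadjusted p under 0.05, beside 18.2%. There were 0 of 7 against resilient mice, beside 2.02%, and 1 of 7 at an unadjusted p under 0.05, beside 19.6%. It was Tdo2 (-1.03 ± 0.32, limma, adjusted p = 0.0774), which passed without B6 sus replicate 1 (-1.17, adjusted p = 0.0423) or 3 (-1.20, adjusted p = 0.0466). Wfs1 passed against controls without B6 sus replicate 4 (0.37, limma, adjusted p = 0.0342). Without the same library Wfs1 also passed between susceptible mice of the strains, being lower in D2 than in B6 (-0.30, limma, adjusted p = 0.0216). In susceptible D2 mice 0 of 7 genes were called by limma, beside 0% of all genes, and 0 of 7 had an unadjusted p under 0.05, beside 3.87%. The same held in resilient B6 mice against controls (0 of 7 by either measure, beside 0% of all genes), for the interaction (0 of 7, beside 0%) and between susceptible mice of the strains (0 of 7, beside 17.5%). In these comparisons 3.86%, 9.32% and 26.9% of all genes had an unadjusted p under 0.05. The mPFC libraries of 7 mice came from animals that also gave a vHPC library.

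In the BNST 0 of 5 genes were called in any comparison by edgeR's quasi-likelihood test with TMM scaling, by DESeq2 or by limma on voom values, while edgeR without TMM scaling called C1ql2 between susceptible mice of the strains. The share of all genes called between control strains was 2.51%. Of the 5 genes 2 had an unadjusted p under 0.05 there, beside 13.4% of all genes. These were Wfs1 (-0.67 ± 0.32, edgeR's quasi-likelihood test, adjusted p = 0.362) and Fibcd1 (-0.78 ± 0.37, adjusted p = 0.364). Of the 5 genes 1, Wfs1, had an unadjusted p under 0.05 between resilient and control D2 mice (0.90 ± 0.36, edgeR's quasi-likelihood test, adjusted p = 0.858), beside 5.44% of all genes. None had in the other 6 comparisons, beside 1.87% to 18.4% of all genes. The share of all genes called was 5.18% between susceptible mice of the strains, 0.00571% between susceptible and resilient B6 mice and 0% in the others. C1ql2, lower in D2 mice in the vHPC, had a higher mean in D2 controls here, at 0.13 to 1.95 log2 CPM in B6 and 0.36 to 2.72 in D2 libraries, with a difference of 0.93 ± 0.46 (edgeR's quasi-likelihood test, adjusted p = 0.379). Prox1 ranged from 5.08 to 6.74 in B6 and from 4.94 to 7.71 in D2 controls. Values of 4 of the 5 genes moved with markers of neighbouring structures in the BNST. Over the 28 libraries, after subtraction of the group mean, Prox1 had Pearson correlations of 0.53 to 0.85 with 5 thalamic genes. Pou3f1 had 0.57 to 0.93, Fibcd1 0.53 to 0.84 and Wfs1 0.47 to 0.60 with 5 striatal genes, the points sharing library and dissection. C1ql2 had -0.05 to 0.43 with the thalamic and -0.33 to 0.23 with the striatal genes. With 6 inhibitory neuron genes the correlations ran from -0.23 to 0.71 for C1ql2 and from -0.40 to 0.89 for Prox1. They ran from -0.50 to 0.72 for Pou3f1, from -0.51 to 0.63 for Fibcd1 and from -0.60 to 0.51 for Wfs1. The summed level of the thalamic genes ran from 226 to 1820 CPM in D2 con and from 212 to 408 in B6 con libraries. Their part in the BNST values was not tested.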

How the data were processed

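RNA-seq libraries of vHPC (28), mPFC (32) and BNST (28) were grouped by strain and CSDS phenotype from the GEO labels. The authors removed duplicate reads, aligned to GRCm38 with STAR and counted with HTSeq. For vHPC and mPFC they deposited log2 CPM values, keeping a gene where 6 or more libraries reached 1 CPM. These came from voom, and ComBat removed differences of library sets (in the vHPC also of sequencing sets). For BNST the authors deposited raw counts (11825757 to 25793910 reads in genes per library), filtered here in the same way. The depth of the other tables is unknown from their values. The study's sample sheet lists the number of reads analyzed, which did not enter these fits. Since adjusted values entered the vHPC and mPFC fits, their errors do not include that of the adjustment.

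All libraries of a region entered one fit with a mean per group: limma 3.58.1 with the robust option on the deposited log2 CPM, and edgeR 4.0.16 (quasi-likelihood test, TMM scaling, prior count 0.5 for log2 CPM) on counts, in R 4.3.3. P-values were adjusted over all genes of the region (Benjamini-Hochberg), with 0.05 as the threshold. DESeq2 1.42.0 and voom were alternatives for BNST, and the sets, the strain position, filters, normalization and each left-out mouse were alternatives elsewhere. The fits were tested on simulated data without library sets or adjustment, so that test does not bear on the overlap of set and group. Named genes were all 8 members, at most the 3 called genes of largest change in each further list and comparison, and the genes most correlated with the members (5, 5 and 3). Members and lists were chosen with earlier results of these data known. Genes of the pan-hippocampal excitatory list are not reported by name here.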

Additional observations from a re-analysis of the deposited data

Results flagged for a closer look

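Of 96 groups of 4 to 10 libraries, 6 held a library far from the others by Dixon's criterion, and chance flags about 1 in 20 groups. None was in the vHPC. In the mPFC these were B6 con replicate 5 for Fibcd1 (2.00 log2 CPM, the next being 1.5), B6 res replicate 2 for Prox1 (4.3, the next 4.10) and for Tdo2 (-0.25, the next 0.54), B6 sus replicate 4 for Wfs1 (5.04, the next 5.71) and D2 sus replicate 7 for Wfs1 (5.88, the next 5.58). In the BNST it was B6 sus replicate 3 for Pou3f1 (7.1, the next 6.01). Leaving out B6 sus replicate 4 brought Wfs1 past the threshold in 2 mPFC comparisons, as given above.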

How the results depend on the processing

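In susceptible B6 mice against controls, 4 genes were called in the vHPC, and 0 with the library set or the strain position as a covariate, where Dsp (0.019) and Lct (0.16) changed sign under the strain position. For resilient mice against controls, 1 call became 2 without the robust option, with a mean-variance trend, with a mean log2 CPM of at least 1 or with quantile normalization, and 0 with the library set, the sequencing set or the strain position as a covariate (1 to 2 with a mouse left out). In sequencing set 1 alone, with 1 resilient library, Tdo2 differed by -0.34. For susceptible against resilient mice, 4 calls became 0 with the library set and 1 (Tdo2) with only the groups compared (1 to 4 with a mouse left out). With the strain position those 4 were lost and 1 other gene, Wfs1 (1.04, limma, adjusted p = 0.0419), was called higher. Sequencing set 1 alone held 1 resilient library, and the values there were -0.87 for Tdo2, -0.58 for C1ql2, -1.30 for Dsp and -1.76 for Lct. For D2 mice, 1 call became 0 with either set, the strain position or only the groups compared (0 to 1 with a mouse left out). In sequencing set 1 alone, with 1 susceptible D2 library, Tdo2 differed by -0.26. Between control strains 6 calls became 2 with the library set, and between susceptible strains 4 became 0 with the library set and 2 with the sequencing set (2 to 4 with a mouse left out). Between susceptible strains, sequencing set 1 alone held 1 D2 library. The values there were -0.86 for Tdo2, -0.46 for C1ql2, -0.66 for Wfs1 and 0.36 for Pou3f1. The interaction gave 1 with a mean-variance trend or a mean log2 CPM of at least 1 and 2 with only the groups compared (0 to 1 with a mouse left out). In the mPFC, leaving out a mouse gave 0 to 1 calls for susceptible B6 mice against controls, against resilient mice and against susceptible D2 mice, and 1 to 2 between control strains. In the BNST, 1 gene, C1ql2 (1.33, edgeR's quasi-likelihood test, adjusted p = 0.0365), was called between susceptible strains without TMM. The dentate minus CA field difference was -0.86 without Lct and -0.83 from medians in susceptible B6 mice against controls, -0.58 and -0.62 against resilient mice, and -0.98 between control strains without Lct. The cause of these changes was not tested. The strain position was not run as a covariate of the strain comparisons. Within each strain the vHPC groups did not overlap in strain position, so fits with it could hardly separate position from group. No paired analysis was possible because replicate numbers in the labels do not tie mice across groups. Depth limits Dsp, Tdo2 and Lct in the BNST, with at most 22 reads a library.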
